A study of Mus musculus with 6 samples.

Results

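The 10 genes described here encode the machinery that loads peptides onto MHC class II molecules and the factor that switches this machinery on. They are Cd74, H2-Aa, H2-Ab1, H2-Eb1, H2-DMa, H2-DMb1, H2-DMb2, H2-Oa, H2-Ob and Ciita, selected by gene symbol, and all 10 were found among the 31053 features of each of 6 single-cell RNA libraries. The libraries hold splenic cells sorted from mice immunized with sheep red blood cells and labelled by the submitters as germinal center (GC) B cells. 3 libraries came from Cgamma1-Cre WT Control mice, named Smc3 wt/wt here, and 3 from Cgamma1-Cre Smc3 +/- mice, named Smc3 wt/-, which lost 1 allele of Smc3, a core subunit of the cohesin ring. Both groups carried the Cre recombinase, which is driven from the Cγ1 heavy chain locus and acts in B cells that enter the GC reaction, so naive B cells, T cells and myeloid cells keep both Smc3 alleles by design. The study used this comparison to ask at which step between the GC and the plasma cell the Smc3 dose matters. The study's methods name more Smc3 wt/wt mice than there are Smc3 wt/wt libraries here. Which mice stand behind each library, and their age, were not given in the sources used here.

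Class II molecules are pairs of an alpha and a beta chain that present peptides from endosomes to CD4 T cells. Cd74, the invariant chain, occupies the groove of new pairs and guides them to endosomes, H2-DM exchanges its remnant for antigen peptides, and H2-DO, made in B cells, inhibits H2-DM. Ciita is the transactivator that drives these genes, and in plasma cells the repressor Blimp-1, encoded by Prdm1, shuts Ciita off. GC B cells depend on this display, since centrocytes (CC) of the light zone compete for T cell help before they return to the dark zone as centroblasts (CB) or exit to the memory pool or, over the plasmablast (PB), to the plasma cell (PC).

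8 of the 10 genes lie within 224 kb of chromosome 17 (GRCm38, GENCODE annotation). In this order along the chromosome they are H2-Oa (chr17:34092340-34095234), H2-DMa (chr17:34119541-34139101), H2-DMb2 (chr17:34143307-34151555) and H2-DMb1 (chr17:34153072-34160230), followed by H2-Ob (chr17:34238903-34254414), H2-Ab1 (chr17:34257689-34269419), H2-Aa (chr17:34282744-34287823) and H2-Eb1 (chr17:34305867-34316674). H2-Aa is on the minus strand and the other 7 are on the plus strand. Ciita lies on chromosome 16 (chr16:10480059-10528418, plus strand). Promoters of class II genes share an X box, bound by the RFX complex, and a Y box, bound by NF-Y, and Ciita is recruited to the proteins assembled there. The promoter sequences are shown because all 10 genes changed in the same direction in 2 of the 5 class comparisons, although single members departed from the others elsewhere. RefSeq promoter windows (GRCm38.p6) were at hand for 7 of the 10 genes, and 6 of them held the letters TGATTGG, the core of the Y box. In each line below, 120 bases are printed 5′ to 3′ in the direction of the gene, from base 150 to base 31 before the RefSeq start, with TGATTGG and, where present, AACNNATGA in capitals.
H2-Oa: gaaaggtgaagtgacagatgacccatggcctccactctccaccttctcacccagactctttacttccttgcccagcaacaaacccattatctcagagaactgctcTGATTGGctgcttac
H2-DMb2: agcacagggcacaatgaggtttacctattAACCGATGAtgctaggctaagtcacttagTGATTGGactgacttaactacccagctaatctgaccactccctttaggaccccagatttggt
H2-DMb1: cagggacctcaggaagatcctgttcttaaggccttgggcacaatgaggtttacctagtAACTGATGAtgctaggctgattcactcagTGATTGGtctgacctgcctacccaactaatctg
H2-Ob: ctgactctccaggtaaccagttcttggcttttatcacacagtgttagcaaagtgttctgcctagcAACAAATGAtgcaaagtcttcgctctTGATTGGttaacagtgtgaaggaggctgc
H2-Aa: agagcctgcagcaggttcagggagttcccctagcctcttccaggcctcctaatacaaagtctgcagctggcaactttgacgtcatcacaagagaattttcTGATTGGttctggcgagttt
H2-Eb1: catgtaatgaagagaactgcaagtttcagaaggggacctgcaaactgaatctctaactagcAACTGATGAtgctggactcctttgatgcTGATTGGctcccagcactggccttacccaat
These stretches are chr17:34092229-34092348, chr17:34145099-34145218, chr17:34153041-34153160, chr17:34238755-34238874 and chr17:34305717-34305836 on the plus strand and chr17:34287854-34287973 on the minus strand. AACNNATGA, a run of letters seen in X boxes and chosen after these promoters had been read, stood upstream of the Y box letters in H2-DMb2, H2-DMb1, H2-Ob and H2-Eb1, with 20, 20, 17 and 19 bases between the motifs. Over the 250 bases before the start and on both strands, TGATTGG occurred in 7.23% of all 32851 promoter windows, AACNNATGA in 2.49% and both in 0.265%. The motifs share no base in the 4 promoters that hold both, and these matches describe letters, not bound sites.

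The 6 libraries held between 5223325 and 35354257 unique molecular identifiers (UMIs, each standing for a captured transcript), and 20847 cells remained after filtering. Levels are given as CPM, the UMIs of a gene per 1000000 UMIs of a cell class in a library, with immunoglobulin (Ig) genes left out of the total. Classes were named from marker genes after clustering without the 10 genes: 5983 CB-like, 1383 CC-like, 4267 S-phase GC B-like cells, 550 recycling-like cells (GC B cells with genes of the Myc response), 593 PB-like and 1368 PC-like cells, 1755 naive or memory B-like cells, 748 myeloid-like and 534 T cell-like cells. A further 3666 cells stayed unnamed, since their clusters were led by hemoglobin genes and also held B cell markers. The label GC B cells thus covers the GC classes but not the naive or memory B-like, plasma-lineage, myeloid-like and T cell-like cells. Smc3 wt/- replicate 2 stood apart, since 51.9% of its UMIs belonged to Ig genes, a share that ran from 2.37% to 3.90% elsewhere, and it supplied 1290 of the 1368 PC-like, 350 of the 593 PB-like and 644 of the 748 myeloid-like cells. Its CB-like cells had 6961 CPM of Jchain, the joining chain of secreted antibodies, against 1591 to 1982 elsewhere. Of 20603 distinct barcodes, 242 occurred in more than 1 library. The targeted gene Smc3 stood at 165, 180 and 161 CPM in CB-like cells of Smc3 wt/wt replicates 1 to 3 and at 162, 114 and 196 CPM in those of Smc3 wt/- replicates 1 to 3, so the groups overlap. 3′ tags lie outside the deleted exon. Whether transcripts of the deleted allele were still counted was not tested, so these values do not settle the labels.

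Levels of the class II genes followed the position of a cell in the B lineage. The 10 genes together took 4.91% to 5.71% of the non-Ig UMIs of naive or memory B-like cells, 3.77% to 4.49% of CC-like cells, 2.44% to 3.19% of CB-like cells and 1.46% to 1.81% of recycling-like cells. In PC-like cells they took 0.822% to 1.16%, and in T cell-like cells, which should lack these transcripts, 0.0626% to 0.327%. The ranges of naive or memory B-like, CC-like, CB-like and recycling-like cells do not overlap. This leaves out the unnamed cells, which also held B cell markers. They took 4.44% to 4.99% outside Smc3 wt/- replicate 2, overlapping with the CC-like and the naive or memory B-like ranges, and 3.02% in that library. The T cell-like value is set beside low levels as a reference for free RNA in these droplets, and it is a rough one. Relative to naive or memory B-like cells of the same library it ran from 1.63% to 7.15% for H2-Ab1, from 3.83% to 19.2% for H2-DMa and from 3.92% to 17.6% for H2-Ob, on few UMIs in some libraries.

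**Figure D1:**
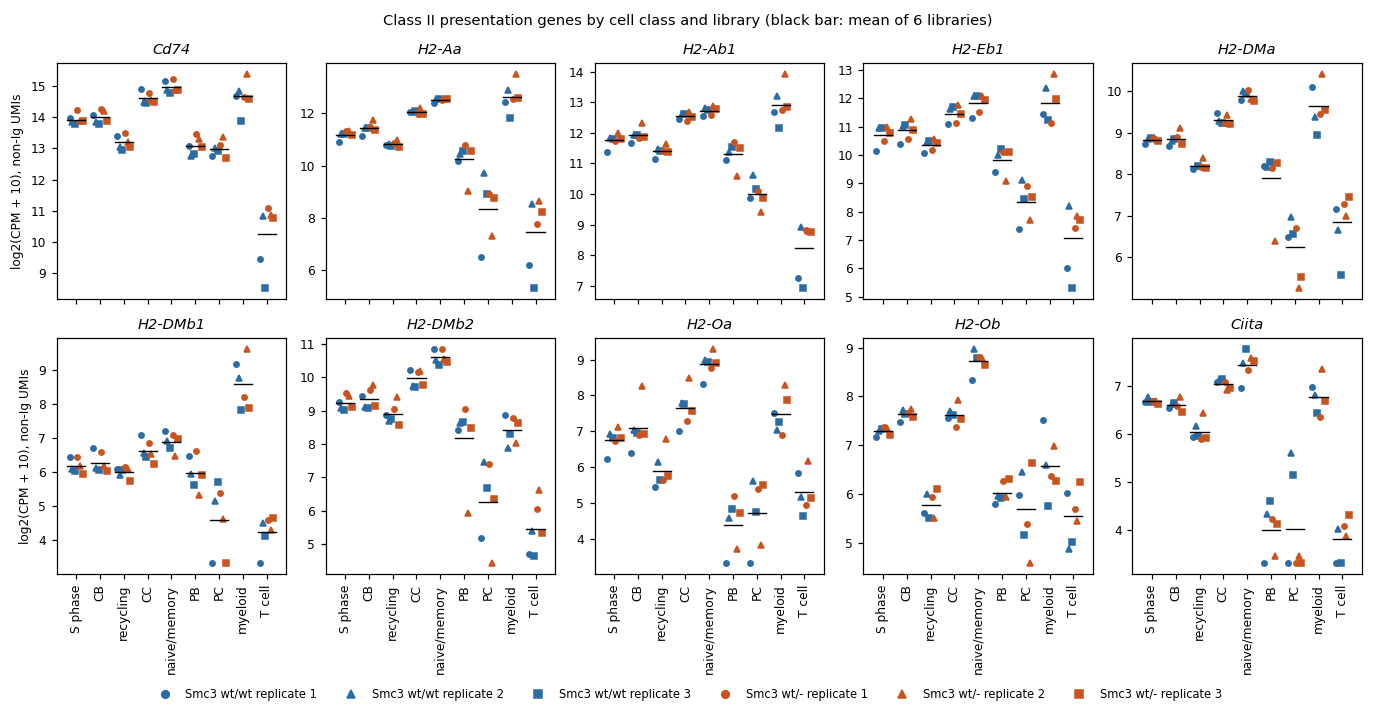
Level of each class II gene in 9 cell classes, as log2(CPM + 10) of non-Ig UMIs; each point is a library (blue, Smc3 wt/wt; orange, Smc3 wt/-; circle, triangle and square, replicates 1, 2 and 3) and black bars are means of 6 libraries. Levels fall from naive or memory B-like over CC-like to CB-like cells, except for H2-Ob, and 8 of the 10 genes have their lowest mean in T cell-like cells, while Cd74 of every PB-like and PC-like point stays above the T cell-like points.

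Cd74 (chr18:60803848-60812652, plus strand) had its highest mean over libraries in naive or memory B-like cells, at 32342 ± 4113 CPM (SD, n = 6 libraries). The range of myeloid-like cells (27379.6 ± 9095 CPM) overlapped with it, and in Smc3 wt/- replicate 2, which held most of them, myeloid-like Cd74 (43115 CPM) exceeded the naive or memory B-like level (30198 CPM). It ranged from 22518 to 30470.2 CPM (median 23638) in CC-like cells and from 14232 to 19799.7 CPM (median 16145) in CB-like cells, so that the lowest CC-like library lay above the highest CB-like library. S-phase GC B-like cells, at 14078 to 19356 CPM, overlapped with CB-like cells, whereas recycling-like cells lay lower at 7907 to 11454 CPM. Per cell, however, recycling-like cells, which had the highest UMI count of the GC classes, held more Cd74 than CB-like cells, at 172 ± 26.6 UMIs (SD, n = 6) against 111 ± 13.4 in CB-like cells. The lower CPM is thus a lower share of a larger RNA total.

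The chains of the class II molecules showed the same order. H2-Aa, the alpha chain of I-A, ranged from 5359 to 6031 CPM (median 5953) in naive or memory B-like cells, from 4059.7 to 4718 CPM (median 4273) in CC-like cells and from 2231 to 3426 CPM (median 2780.1) in CB-like cells, with no overlap between these classes. H2-Ab1, its beta chain, had 6774 ± 586, 6004 ± 467 and 3907 ± 633 CPM in the same classes, and the ranges of the first 2 overlapped. H2-Eb1, the beta chain of I-E, had 3701 ± 776, 2842 ± 555 and 1896 ± 415 CPM, and each of these ranges overlapped with the next. In myeloid-like cells all 3 chains spread widely, H2-Aa from 3575 to 11705 CPM (median 6057), and the myeloid-like range covered the whole naive or memory B-like range.

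The peptide editor and its inhibitor differed in how they fell. H2-DMa, the alpha chain of H2-DM, had 942 ± 75.8 CPM in naive or memory B-like, 624 ± 48.3 in CC-like and 449.8 ± 50.6 in CB-like cells. H2-DMb2, the main beta chain UMI source in B cells here, had 1556 ± 221, 1004 ± 171 and 659 ± 139 CPM. The inhibitor chains dropped further from naive or memory B-like to GC cells: H2-Oa from 465 ± 100.4 to 202 ± 80.4 CPM in CC-like cells, and H2-Ob from 415 ± 59.6 to 188 ± 26.7 CPM. H2-Ob had nearly the same mean in both GC zones, 188 CPM in CC-like and 189 CPM in CB-like cells, with ranges of 155 to 234 and 169 to 205 CPM. The CC-like and CB-like ranges of H2-Eb1, H2-DMb1, H2-DMb2 and H2-Oa overlapped too, but their means were higher in CC-like cells. In recycling-like cells H2-Ob ranged from 35.1 to 58.9 CPM, overlapping with the T cell-like range of 19.3 to 65.2 CPM. Ciita had 166 ± 31.1 CPM in naive or memory B-like, 122 ± 8.44 in CC-like and 87.3 ± 6.88 in CB-like cells, and its recycling-like range, 49.2 to 76.0 CPM, lay below every CB-like library.

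Class II mRNA took a larger share of the UMIs of CC-like than of CB-like cells. 9 of the 10 genes rose and none fell (9 higher of 10 tested, edgeR's quasi-likelihood test with the library as a block and Benjamini-Hochberg adjustment), where 49.4% of the 8230 genes tested were called in either direction, 25.2% higher. The median log2 difference of the 10 genes was 0.61, against -0.00 over all genes tested. The largest were H2-Oa (0.65 ± 0.07 SE on the log2 scale), H2-Aa (0.65 ± 0.05, edgeR adjusted p = 1.05e-08), H2-Ab1 (0.64 ± 0.05) and H2-DMb2 (0.63 ± 0.05). Cd74 rose by 0.62 ± 0.06 and was higher in CC-like than in CB-like cells in 6 of 6 libraries. H2-DMa (0.48 ± 0.06), Ciita (0.53 ± 0.06) and H2-DMb1 (0.39 ± 0.07) rose less. H2-Ob differed by -0.02 (95% limits -0.16 to 0.11), a difference within the spread between libraries. The classes were formed from other genes of the same cells, so these p-values say how steady a difference was over libraries. Without the library block 7 genes were called, H2-Oa and H2-DMb1 no longer among them, and with the looser cell filter H2-Ob rose too, by 0.51. That filter admitted cells with fewer genes and with more mitochondrial UMIs and re-formed the classes, so that its CC-like class took in a further cluster of 3281 cells.

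Naive or memory B-like cells exceeded CC-like cells for every class II gene in CPM, but for most of them not in UMIs per cell. All 10 rose in CPM, where 56.2% of the 6926 genes tested were called in either direction and 29.5% rose, and their median log2 difference was 0.66 against 0.04 over all genes. The inhibitor chains led, with H2-Oa at 1.44 ± 0.09 and H2-Ob at 1.36 ± 0.10 (edgeR adjusted p = 1.90e-08 and 3.91e-08). H2-DMb2 (0.83 ± 0.07) and H2-DMa (0.79 ± 0.08) followed, whereas H2-Ab1 showed the smallest difference, 0.36 ± 0.06. H2-Oa was at 309, 495 and 482 CPM in naive or memory B-like cells of Smc3 wt/wt replicates 1 to 3 against 119, 211 and 206 CPM in their CC-like cells. In Smc3 wt/- replicates 1 to 3 it was at 422, 617 and 465 CPM against 147, 349 and 179 CPM. Each library was therefore higher in naive or memory B-like cells, and the high CC-like value of Smc3 wt/- replicate 2 still lay below its own naive or memory B-like value. Without the library block 8 genes were called, H2-Ab1 and H2-Eb1 no longer among them, and with the looser cell filter and its larger CC-like class 9 were called, with Ciita at 0.09. Naive or memory B-like cells held fewer UMIs, with a median of 2364 non-Ig UMIs against 4901 in CC-like cells. Per cell, Cd74 was at 98.2 ± 9.56 UMIs (SD, n = 6) in naive or memory B-like against 135 ± 18.6 in CC-like cells, and H2-Aa was at 18.0 against 23.2. Only H2-Oa (1.43 against 1.08) and H2-Ob (1.28 against 1.01) had the higher mean per cell in naive or memory B-like cells among the 10 genes.

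**Figure D2:**
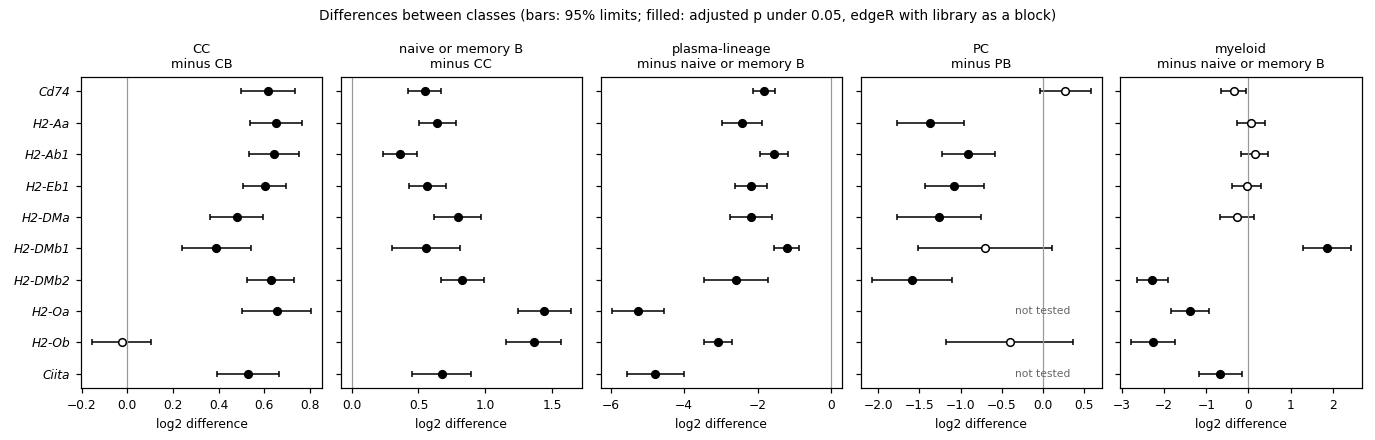
Log2 difference of each class II gene in 5 comparisons of cell classes, with 95% limits from edgeR's quasi-likelihood fit with the library as a block; filled points passed an adjusted p of 0.05. In the plasma-lineage comparison all 10 points lie left of 0, between -5.26 for H2-Oa and -1.20 for H2-DMb1, whereas in the myeloid comparison H2-DMb1 lies right of 0 and 5 points are open.

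Among the comparisons of classes, the largest falls in CPM lay between naive or memory B-like cells and the plasma lineage, PB-like and PC-like cells together. All 10 genes took a smaller share of the UMIs in the plasma lineage, where 31.4% of the 6472 genes tested were lower and 29.9% higher, and their median log2 difference was -2.30 against -0.03 over all genes. H2-Oa (-5.26 ± 0.33) and Ciita (-4.78 ± 0.36, edgeR adjusted p = 1.20e-07) had the largest fitted differences, but only 98 and 49 of their UMIs came from plasma-lineage cells, with 0 in Smc3 wt/wt replicate 1. Their plasma-lineage levels, 0 to 26.7 and 0 to 15.6 CPM, overlap with the T cell-like ranges of 14.9 to 62.0 and 0 to 10.0 CPM, so the size of these 2 differences is uncertain. H2-Ob fell by 3.08 ± 0.18. H2-DMb2 (-2.58), H2-Aa (-2.43), H2-DMa (-2.18) and H2-Eb1 (-2.17) fell to a similar degree. Cd74 (-1.82 ± 0.13), H2-Ab1 (-1.55 ± 0.17) and H2-DMb1 (-1.20 ± 0.16) fell least. Since most plasma-lineage cells came from Smc3 wt/- replicate 2, the fit was repeated without it: all 10 genes were again lower, with a median of -2.06, H2-Oa at -4.76 and Ciita at -4.10. In UMIs per cell, however, PB-like cells were not lower for every gene: as means over libraries, Cd74 was at 104 against 98.2 in naive or memory B-like cells, H2-Ab1 at 33.6 against 20.8 and H2-Aa at 17.4 against 18.0. H2-Oa (0.181 against 1.43), Ciita (0.104 against 0.514) and H2-Ob (0.689 against 1.28) were lower per cell too, and these per-cell values were not tested. Beside recycling-like GC cells, mean PB-like levels were close for Cd74 (8761 against 9461 CPM) and H2-Ab1 (2581 against 2719 CPM), with overlapping ranges. They were lower for H2-Oa (13.0 against 53.0 CPM) and Ciita (7.01 against 56.9 CPM). PB-like and recycling-like cells were not compared by a test. Prdm1, which encodes the repressor of Ciita, had 47.0 to 76.5 CPM in PB-like cells and 0 to 3.74 CPM in naive or memory B-like cells. It is among the markers that named the plasma classes, so this contrast was built into them.

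The plasma-lineage levels by library show what was kept. Ciita was at 0, 10.2 and 14.4 CPM in PB-like cells of Smc3 wt/wt replicates 1 to 3 and at 8.82, 1.05 and 7.57 CPM in those of Smc3 wt/- replicates 1 to 3, which overlaps with the T cell-like range of 0 to 10.0 CPM. Cd74 in PB-like cells was at 8688, 6852 and 7154 CPM and at 11391, 10007 and 8471 CPM in the same order. In PC-like cells it was at 6907, 8170.4 and 7681 CPM and at 8873, 10486 and 6561 CPM. All 12 of these Cd74 values lie above the highest T cell-like library (2182 CPM). Per cell, Cd74 was at 104 ± 29.8 UMIs in PB-like and 33.2 ± 11.9 in PC-like cells (SD, n = 6), and H2-Aa at 17.4 and 1.71. Relative to naive or memory B-like cells of the same library, PC-like cells held 18.7% to 34.7% of the Cd74 level, 8.89% to 22.0% of H2-Ab1 and 1.48% to 13.7% of H2-Aa. Jchain alone made up 234943 to 392049 CPM of PC-like cells, which lowers the CPM of all other genes there, and the fits correct for this by their scaling factors.

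PC-like cells were lower than PB-like cells for H2-Aa, H2-Ab1 and H2-Eb1, the chains of the class II molecules, and for H2-DMa and H2-DMb2 of H2-DM. 5 of the 8 genes tested fell and none rose, where 26.5% of the 3993 genes tested were called, 16.3% lower and 10.3% higher, and their median was -0.99 against -0.13 over all genes. H2-DMb2 (-1.60 ± 0.24), H2-Aa (-1.37 ± 0.20, edgeR adjusted p = 3.08e-06), H2-DMa (-1.26 ± 0.25), H2-Eb1 (-1.07 ± 0.18) and H2-Ab1 (-0.90 ± 0.16) passed. Cd74 differed in the other direction, by 0.28 (95% limits -0.03 to 0.59, edgeR adjusted p = 0.191) and did not pass. Its mean was 8113 ± 1433 CPM in PC-like against 8761 ± 1719.7 CPM in PB-like cells, with Jchain counted in the total. Without Smc3 wt/- replicate 2 Cd74 was called higher, at 0.46 (edgeR adjusted p = 0.00293), and 5 genes fell. H2-DMb1 (-0.70) and H2-Ob (-0.40) did not pass, and H2-Oa and Ciita were too low to be tested. Between 12 and 22 PC-like cells stand behind each library other than Smc3 wt/- replicate 2, which bounds the precision of their values.

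H2-Aa of the plasma lineage differed between libraries. It was at 1157, 1395 and 1516 CPM in PB-like cells of Smc3 wt/wt replicates 1 to 3 and at 1774, 517 and 1493 CPM in those of Smc3 wt/- replicates 1 to 3. In PC-like cells it was at 79.1, 821 and 474 and at 474, 147 and 428 CPM. The PB-like cells of Smc3 wt/- replicate 2 were the lowest of all libraries, and its PC-like value lay below the 391 CPM of its own T cell-like cells. In the other 5 libraries PC-like H2-Aa was 1.25 to 15.9 times the T cell-like level. In Smc3 wt/- replicate 2 the PC-like value was below the T cell-like value for 7 of the 10 genes, among them H2-Eb1 (198 against 222 CPM), H2-DMa (28.3 against 117), H2-Ob (13.9 against 33.4), H2-DMb2 (11.4 against 88.2) and H2-Oa (4.25 against 62.0). With Jchain left out of both totals it was 6 of the 10, as H2-Eb1 was then higher in PC-like cells (300.4 against 223 CPM). Cd74 (10486 against 1869 CPM), H2-Ab1 (666 against 434) and H2-DMb1 (14.4 against 9.53) were higher there in PC-like than in T cell-like cells.

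A like order appeared when plasma-lineage cells were arranged by the Ig share of their own UMIs, a measure of how far they make antibody. Pooled over libraries, H2-Aa was at 1702 CPM in the 87 cells with under 10% Ig, 1143 CPM in the 214 cells with 10% to 30%, 662 CPM in the 162 cells with 30% to 50%, 213 CPM in the 867 cells with 50% to 70% and 134 CPM in the 631 cells above 70%. H2-Ab1 went from 3104 to 656 CPM and H2-DMa from 322 to 32.7 CPM over the same bins. Cd74 did not follow, with 7719.9 CPM in the first bin, 11139 CPM at 50% to 70% and 10019 CPM in the last. In UMIs per cell both went down over the pooled bins, Cd74 from 159 to 48.5 and H2-Aa from 35.0 to 0.648, and the cells of the first bin held more UMIs in all. Because the libraries fill the bins unequally, Smc3 wt/- replicate 2 was also read alone: from 10% to 30% up to above 70% Ig, its H2-Aa was at 647, 451, 192 and 132 CPM. Its Cd74 was at 7079, 8843, 11197 and 10233 CPM over the same 4 bins. Per cell, its H2-Aa went from 4.23 to 0.643 UMIs and its Cd74 was at 46.3 and 49.8 UMIs in the first and last of them. Within this library the chain genes thus went down over the bins while Cd74 did not. These are descriptions without a test, since the bins share their cells' library.

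**Figure D3:**
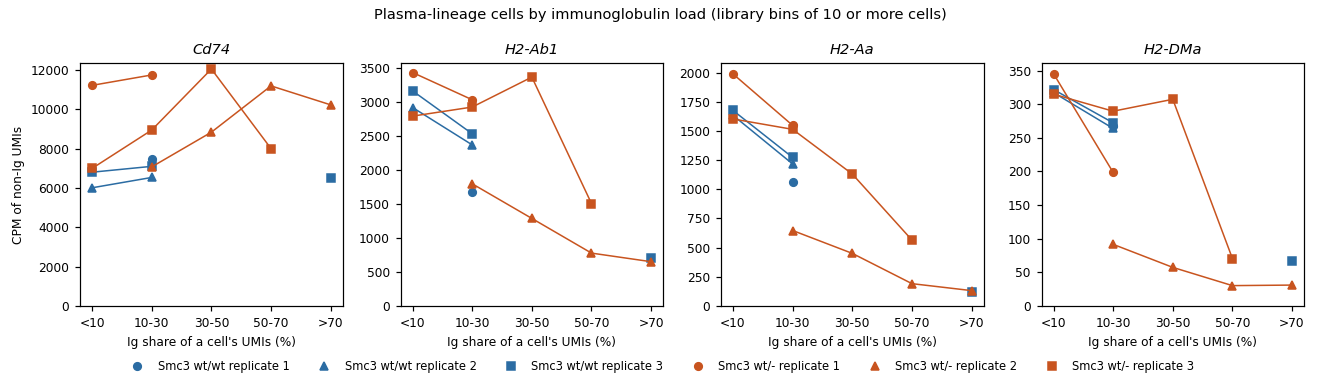
Level of Cd74, H2-Ab1, H2-Aa and H2-DMa, in CPM of non-Ig UMIs, in plasma-lineage cells binned by the Ig share of their UMIs; each line is a library and only bins of 10 or more cells are drawn. H2-Ab1, H2-Aa and H2-DMa of Smc3 wt/- replicate 2 (orange triangles) go down from bin to bin or level off, with H2-Aa reaching 132 CPM, whereas Cd74 stays between 7079 and 11197 CPM.

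Shares of cells with a UMI were compared at matched depth. After each cell was thinned to 1000 non-Ig UMIs, 99.5% of PC-like cells (exact 95% binomial interval 98.9% to 99.8%) still held a Cd74 UMI, against 30.3% of T cell-like cells (26.2% to 34.7%). H2-Aa was detected in 98.3% of naive or memory B-like and 96.2% of CC-like cells, in 45.6% of PB-like and 12.8% of PC-like cells, and in 8.84% of T cell-like cells. The PC-like interval (11.1% to 14.7%) and the T cell-like interval (6.45% to 11.8%) overlap, but the pooled PC-like share is mostly that of Smc3 wt/- replicate 2, where 11.7% of PC-like and 8.33% of T cell-like cells held an H2-Aa UMI. In the other 5 libraries, with 12 to 22 PC-like cells each, the PC-like share ran from 8.33% to 60.0%. Ciita was detected in 18.7% of naive or memory B-like and 12.8% of CC-like cells, but in 0.338% of PB-like and 0.147% of PC-like cells, at or under the 0.421% of T cell-like cells. Without thinning, at median depths of 4829 non-Ig UMIs in PC-like and 1645 in T cell-like cells, the H2-Aa shares were 43.9% and 11.6%. The intervals cover counting error only.

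Between myeloid-like and naive or memory B-like cells both beta chain genes of the editor and both genes of its inhibitor differed, as did Ciita, whereas the differences of H2-DMa, Cd74 and the class II chains did not pass the test. H2-DMb1 rose (1.86 ± 0.28, edgeR adjusted p = 4.98e-06), where 12.2% of the 4494 genes tested rose and 26% were called in either direction. H2-DMb2 (-2.28 ± 0.18), H2-Ob (-2.26 ± 0.25), H2-Oa (-1.39 ± 0.22) and Ciita (-0.67 ± 0.25, edgeR adjusted p = 0.0474) fell, where 13.8% fell. The median of the 10 genes was -0.31, against -0.12 over all genes. The difference was 0.06 (95% limits -0.27 to 0.39) for H2-Aa, 0.15 (-0.17 to 0.48) for H2-Ab1, -0.04 (-0.38 to 0.31) for H2-Eb1, -0.28 (-0.68 to 0.13) for H2-DMa and -0.35 (-0.64 to -0.06, edgeR adjusted p = 0.0689) for Cd74, none of which passed. The call of Ciita was lost when either Smc3 wt/wt replicate 2 (-0.67), Smc3 wt/wt replicate 3 (-0.52), Smc3 wt/- replicate 1 (-0.69) or Smc3 wt/- replicate 3 (-0.61) was left out. Without Smc3 wt/- replicate 2, whose share of the myeloid-like cells was the largest, 7 genes were called, with H2-DMa at -0.46 and Cd74 at -0.44 now lower.

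The beta chain of H2-DM is encoded by both H2-DMb1 and H2-DMb2, and B-lineage and myeloid-like cells used them in different proportions. H2-DMb2 gave 87.9% to 94.9% of the H2-DMb UMIs in the 4 GC classes and in naive or memory B-like cells of every library. In myeloid-like cells of Smc3 wt/wt replicates 1 to 3 its share was 44.4%, 34.2% and 58.3%, and in those of Smc3 wt/- replicates 1 to 3 it was 60.0%, 24.2% and 63.0%. Each of these 6 values lies below every value of the GC and naive or memory B-like classes. PB-like cells had 81.0% to 90.8% in 5 libraries, partly below the range of these classes, and Smc3 wt/- replicate 2 had 62.8% in PB-like and 44.3% in PC-like cells. The PB-like cells of that library also held the larger Ig share given above. In that library the monocyte or macrophage markers, all 14 summed, stood at 122 CPM in PB-like and 130.2 CPM in PC-like cells with 13 of the 14 detected, against 16.5 to 26.7 CPM in PB-like cells of the other 5 libraries. The 12 neutrophil markers stood at 114 and 213 CPM there, against 0 to 2.89 CPM. Their part in the H2-DMb2 share was not tested. 20.4% of the 50-base words in the last 500 bases of H2-DMb1 transcripts also occur in H2-DMb2 transcripts, so the split of reads between both genes is uncertain, while no such word of H2-DMb2 occurs in H2-DMb1.

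**Figure D4:**
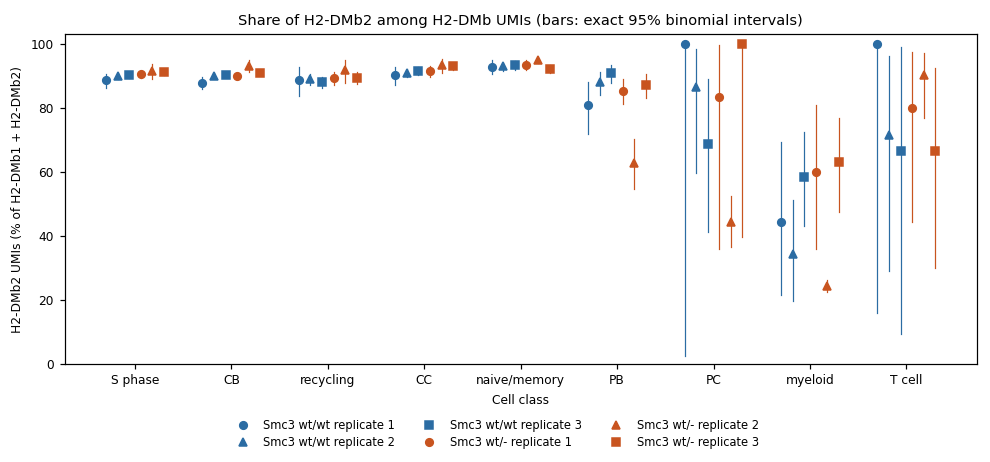
Percentage of H2-DMb2 among the UMIs of H2-DMb1 and H2-DMb2 in 9 cell classes; each point is a library and bars are exact 95% binomial intervals. The GC classes and naive or memory B-like cells lie between 87.9% and 94.9%, the myeloid points between 24.2% and 63.0%, and Smc3 wt/- replicate 2 (orange triangle) drops to 44.3% in PC.

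The myeloid-like class was a mixture, and its class II level depended on the sub-cluster. Cells were pooled over libraries for this, so there is no replicate check, and intervals are exact 95% Poisson limits of counting. Most cells came from Smc3 wt/- replicate 2, so the level in the cells of the other 5 libraries is added for some of the values that depart from the pooled ones. Pooled values given alone can also rest mostly on that library. The 298 cells led by Mgl2 and Cd209a, 287 of them from Smc3 wt/- replicate 2, had the highest level, with 71565 CPM of Cd74 (70994 to 72139) and 19361 CPM of H2-Aa. The 11 cells of the other libraries had 47011 CPM of Cd74 and 15185 CPM of H2-Aa. The 61 cells led by Ifi205 and Xcr1, a receptor of cross-presenting dendritic cells, had 52032 CPM of Cd74 and 14681 CPM of H2-Aa. When pooled, both had H2-Oa at about the level of naive or memory B-like cells, with 532 and 507 CPM. In their cells from outside Smc3 wt/- replicate 2, H2-Oa was at 1091 CPM (24 UMIs) and 251 CPM (4 UMIs). Pooled H2-DMb2 differed between both sub-clusters, at 509 CPM (462 to 559) against 181 CPM (138 to 233). In the 11 Mgl2 and Cd209a cells of the other libraries H2-DMb2 was at 1318 CPM and H2-DMb1 at 318 CPM, the reverse of the pooled order, in which H2-DMb1 was higher at 1188 CPM. The 105 cells led by Retnla and Saa3 had 7493 CPM of H2-Aa and 711 CPM of H2-DMb1, but only 41.8 CPM of H2-DMb2 and 27.9 CPM of H2-Oa. 90 of these were from Smc3 wt/- replicate 2, and the other 15 had 3528 CPM of H2-Aa and 453 CPM of H2-DMb1. The 100 cells led by Fabp4 and Eno3 (2675 CPM of H2-Aa) and the 55 cells led by Vcam1 and Slc40a1 (2132 CPM) were lower when pooled, but the 14 Fabp4 and Eno3 cells from outside Smc3 wt/- replicate 2 had 6082 CPM. The 38 cells led by the neutrophil genes Retnlg and Ly6g had 15.2 CPM of H2-Aa (1.85 to 55.1) and 76.2 CPM of Cd74 (36.5 to 140.1), and the 40 cells led by the granule genes Elane and Mpo had 309.6 CPM of H2-Aa, or 146 CPM in the 37 of them from Smc3 wt/- replicate 2 and 3344 CPM in the other 3. 19 cells led by the B cell genes Ms4a1 and Cd79a, which go against the class name, had 684 CPM of H2-DMb2 and 247 CPM of H2-DMb1, which was at 465 CPM in the 8 of them from Smc3 wt/- replicate 2 and at 123 CPM in the other 11. The 21 cells led by Fscn1 and Ccl5 had 37084 CPM of Cd74 and 9125 CPM of H2-Aa, and here too H2-DMb2 (273 CPM, 153 to 451) was above H2-DMb1 (146 CPM, 62.9 to 287), with overlapping intervals, and the 7 of them from outside Smc3 wt/- replicate 2 had 5811 CPM of H2-Aa and no H2-DMb1 UMI. Another 11 cells led by Ccl3 held 3 Cd74 UMIs in all. In thinned myeloid-like cells the median was 40 UMIs of H2-Aa, H2-Ab1 and H2-Eb1 per 1000, while 22.1% of the cells held none, and 45 was the median in Smc3 wt/- replicate 2 against 3 to 7 in 4 other libraries, while Smc3 wt/wt replicate 1 had under 10 myeloid-like cells of that depth and was not read.

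**Figure D5:**
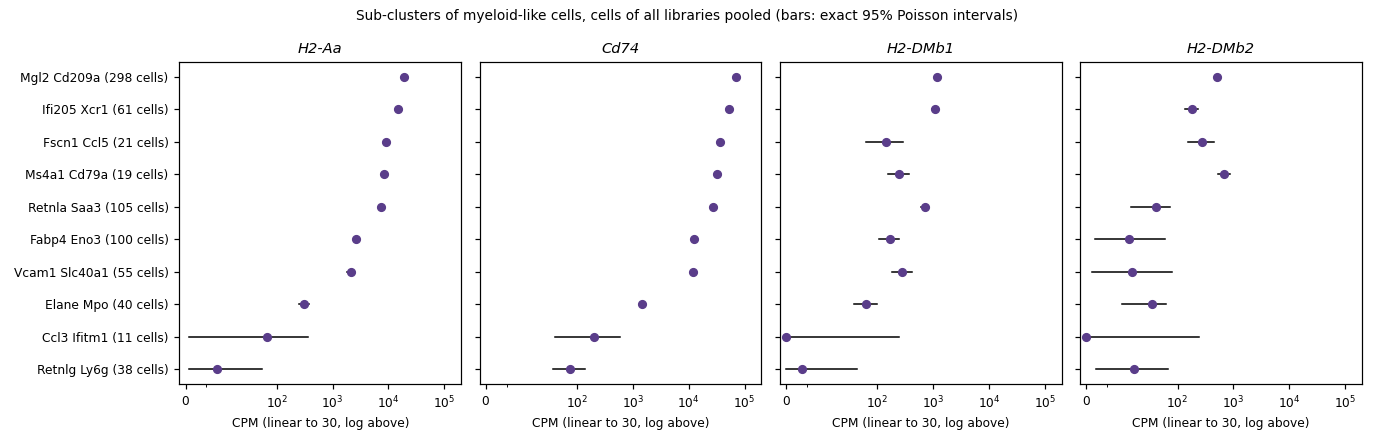
Level of H2-Aa, Cd74, H2-DMb1 and H2-DMb2 in 10 sub-clusters of myeloid-like cells, named by their 2 leading genes, in CPM on an axis that is linear to 30 and logarithmic above; cells of all libraries are pooled and bars are exact 95% Poisson intervals. H2-Aa spans from 19361 CPM in Mgl2 Cd209a cells to 15.2 CPM in Retnlg Ly6g cells, and H2-DMb2 lies above H2-DMb1 in the Ms4a1 Cd79a cells and, with overlapping intervals, in the Fscn1 Ccl5 and Retnlg Ly6g cells.

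No class II gene was called between the genotypes in any class compared. In all kept cells together and, in this order, in the CB-like, S-phase, recycling-like and CC-like classes, naive or memory B-like cells and the plasma lineage, 0 of the 10 genes (9 in plasma-lineage cells, where Ciita was too low) had an edgeR adjusted p under 0.05, and 0 had an unadjusted p under 0.05 by edgeR and 1, in CB-like cells, by DESeq2. The background was the same, with 0% of 11419, 10100, 9593, 8104, 7671, 6996 and 6004 genes called, although 164, 197, 176, 155, 156, 136 and 253 genes had an unadjusted p under 0.05. DESeq2 called 0 genes as well, except 1 in S-phase GC B-like cells that is none of the 10, with 321, 187, 129, 65, 81, 39 and 186 genes at an unadjusted p under 0.05. The median difference of the 10 genes, Smc3 wt/- minus Smc3 wt/wt, was 0.20 in CB-like, 0.06 in CC-like and -0.05 in plasma-lineage cells. In data simulated on these libraries, 88 of 200 genes changed by 1 on the log2 scale were recovered in CB-like cells, 22 of 200 in CC-like and 1 of 200 in plasma-lineage cells, and 180, 179 and 157 of 200 changed by 2, so most differences of the size seen here were not detectable.

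In CB-like cells H2-Oa showed the largest difference, at 74.7, 122 and 114 CPM in Smc3 wt/wt replicates 1 to 3, set against 108, 299 and 112 CPM in Smc3 wt/- replicates 1 to 3. The groups overlap, and the log2 difference of 0.72 (95% limits -0.29 to 1.72, edgeR adjusted p = 0.9999) rests on Smc3 wt/- replicate 2, since it was 0.02 without this library. Its CB-like cells also had the high Jchain level given above, whose part in this value was not tested. In plasma-lineage cells Cd74 showed the largest difference, at 8447, 6971 and 7208 CPM for Smc3 wt/wt replicates 1 to 3, set against 11258, 10372 and 8345 CPM in Smc3 wt/- replicates 1 to 3. Its difference was 0.64 ± 0.35 (95% limits -0.16 to 1.44, edgeR adjusted p = 0.827), the groups overlap, and the difference was 0.31 without Smc3 wt/- replicate 2. H2-Aa in plasma-lineage cells was at 1011, 1343 and 1409 CPM for Smc3 wt/wt replicates 1 to 3, set against 1705, 235 and 1423 CPM in Smc3 wt/- replicates 1 to 3, so that the low value of Smc3 wt/- replicate 2 stands outside the range of the other 5. In CC-like cells, where selection by T cell help takes place, H2-Aa was at 4277, 4269.8 and 4331 CPM for Smc3 wt/wt replicates 1 to 3, set against 4062, 4718 and 4059.7 CPM in Smc3 wt/- replicates 1 to 3, a difference of 0.08 (95% limits -0.54 to 0.70).

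Other genes of the pathway did not all move with the 10. Their counts stand against the shares of all genes tested, of which 25.2% were higher and 24.2% lower in CC-like than in CB-like cells, 29.5% and 26.7% in naive or memory B-like than in CC-like cells, 29.9% and 31.4% in the plasma lineage than in naive or memory B-like cells, 10.3% and 16.3% in PC-like than in PB-like cells, and 12.2% and 13.8% in myeloid-like than in naive or memory B-like cells. Of the 9 class II transcription factors, 1 rose and 5 fell between CB-like and CC-like cells: Irf8 rose (0.62), and Rfxank (-0.52), a subunit of the RFX complex, and the NF-Y subunits Nfyc (-0.47) and Nfyb (-0.42) fell. In the plasma lineage 1 of 8 tested was higher and 4 were lower than in naive or memory B-like cells, namely Irf8 (-2.59), Rfx5 (-2.26), Spi1 (-1.23) and Creb1 (-0.74). The median of the transcription factors was -0.56 against -0.03 over all genes. Prdm1 rose by 5.22, but it is among the markers that named the plasma classes, so its rise was built into them. In myeloid-like cells Spi1, the factor PU.1, was the only 1 of 4 tested to rise (2.06).

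Endosomal processing genes rose from CC-like to naive or memory B-like cells, with 7 of 7 tested higher and a median of 0.84 against 0.04 over all genes. Among them were the proteases Ctsd (1.22), Ctss (1.11), which cleaves the invariant chain, and Ctsh (0.84), and the protease inhibitor Cst3 (1.21). Between CB-like and CC-like cells 5 of 7 rose and 1, Cst3 (-0.77), fell. In the plasma lineage 3 of 7 were higher and 2 lower, with Ctsh (-1.47) and Ctss (-1.16) lower and Ctsd (0.90) and Ctsz (0.71) higher, so its median, 0.56, was opposite in sign to that of the 10 class II genes. From PB-like to PC-like cells 2 rose and 3 fell, with Cst3 at 2.53 and Ctsz at -1.83. Myeloid-like cells were higher for 5 of 7, led by Cst3 (4.51) and Ctsb (3.60).

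Among the 7 genes of class II turnover and endosomal traffic, March1, the ubiquitin ligase that sends class II molecules to lysosomes, showed the largest changes. It was lower in CC-like than in CB-like cells (-0.53), higher in naive or memory B-like than in CC-like cells (1.30) and lower in the plasma lineage (-5.40). Over the 6 genes tested, 1 rose and 3 fell, 3 rose and 0 fell, and 2 rose and 1 fell in these comparisons, where 49.4%, 56.2% and 61.3% of all genes were called in either direction, so these counts lie near the background. Of the 12 class I genes tested, which serve to present peptides from the cytosol, 9 were higher and 1 lower in CC-like than in CB-like cells, where 25.2% of all genes were higher, and 8 were higher and 1 lower in naive or memory B-like than in CC-like cells, where 29.5% were higher. In the plasma lineage 1 of the 12 rose, 2 fell and the median was -0.02 against -0.03 over all genes. Erap1 rose there (1.10) and Tap1 (-0.44) and H2-D1 (-0.31) fell.

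Of the 14 neighbours of the class II genes on chromosome 17, some of them class I genes counted above, 12 were tested between CC-like and CB-like cells, where 8 were higher and 2 lower, with a median of 0.29 against -0.00 over all genes. Between naive or memory B-like and CC-like cells 3 of 11 were higher and 2 lower (median -0.09). Of the 11 tested in the plasma lineage 2 rose, the zinc transporter Slc39a7 (2.61) and Wdr46 (0.51), and 2 fell, Rxrb (-1.17) and Tap1. Genes of the interferon gamma path, an inducer of Ciita in many cells, moved in the direction of the class II genes in 3 comparisons. 5 of 6 were higher in CC-like than in CB-like cells, 5 of 6 in naive or memory B-like than in CC-like cells, and 5 of 5 tested were lower in the plasma lineage, with Ifngr1 (-2.85), Ifngr2 (-2.04) and Jak1 (-1.76) the largest. Their medians were 0.70, 0.48 and -1.76. H2-Eb2, a further I-E beta gene, rose from CC-like to naive or memory B-like cells (0.47) and fell in the plasma lineage (-1.36) and in myeloid-like cells (-2.61), with 3815 UMIs over all kept cells. Only 12 of these UMIs came from myeloid-like cells, so the size of the myeloid difference is uncertain. No gene of these lists was called between the genotypes.

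The genes whose means over 8 classes (PC-like cells were too few in most libraries) lay closest to the mean of Cd74, H2-Aa, H2-Ab1 and H2-Eb1, by Pearson's r on log2(CPM + 10) over 5307 genes, were Ctsh (0.987), Ly86 (0.980), Unc93b1 (0.978), Cop1 (0.971), Fcgr2b (0.971), Lyn (0.969), Wdfy4 (0.968) and Cybb (0.967). Ctsh encodes cathepsin H, Fcgr2b the inhibitory Fc receptor of B cells, and Lyn a kinase of the B cell receptor. Ctsh, for example, had mean levels of 305 CPM in CB-like, 394 in CC-like, 615 in naive or memory B-like cells, 248 in PB-like, 578 in myeloid-like and 26.7 in T cell-like cells. Among the other members, H2-Ob (0.663) and H2-Oa (0.747) lay furthest from this mean, followed by H2-DMb2 (0.840), Ciita (0.869) and H2-DMb1 (0.890). The 8 class means share their libraries and depths, and these values are a description.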

How the data were processed

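Deposited values were raw UMI counts per gene and cell, which the authors made from 3′ single-cell libraries with Cell Ranger against mm10, and the submitters' processing notes also name R 4.0.2 and Seurat 4.0.0. The members and gene lists were chosen with earlier results of these data known. Of 22939 barcodes, 21568 had at least 500 genes and at most 10% mitochondrial UMIs, and 721 (3.34%) were removed as doublets by scrublet. Cells were clustered in Seurat 5.3.0 with integration of libraries (2000 variable genes, 30 components, 20 neighbours, resolution 0.5) without the 10 genes, the pathway lists except Prdm1, and Ig, mitochondrial and ribosomal genes, which left 1886 genes. Clusters were named from marker lists by a rule written after the clusters were seen: at least 3 markers, a mean marker score of at least 0.5 and, for plasma and non-B classes, at least 2 markers among the top 10 genes. UMIs were summed per library and class, without the 392 Ig features, and tested with edgeR 4.0.16 (quasi-likelihood test, TMM scaling, filterByExpr, Benjamini-Hochberg adjustment over all genes tested, threshold 0.05). Differences between classes used libraries with at least 10 cells of both classes and the library as a block. The genotypes were compared without covariate in all kept cells and in the CB-like, S-phase, recycling-like, CC-like, naive or memory B-like and plasma-lineage classes. Each of these had at least 20 cells in every library. PB-like cells on their own and T cell-like cells also reached this number but were not compared. The sources used here do not tie each library to separate mice, so p-values measure the spread between libraries, which may be partly technical. Confidence limits are exact 95% binomial or Poisson limits and cover counting error only. The tests were tried on simulated counts with 200 changed genes.

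The text names the 10 genes, up to 4 called genes of each list and comparison with the largest differences, and the 8 genes most alike in pattern (mean of at least 20 CPM). Leading genes of myeloid-like sub-clusters and the checks Jchain and Smc3 were named beyond this, and some genes are not reported here. Same-numbered libraries of both genotypes deviated together in CB-like cells (correlations of deviations from the group means 0.227, 0.133 and 0.132), in naive or memory B-like (0.289, 0.217, 0.127) and in S-phase GC B-like cells (0.273, 0.143, 0.170), so the replicate numbers were taken to pair these, but not in CC-like (lowest 0.0597), recycling-like (0.0591) or plasma-lineage cells (0.0858) or all kept cells (-0.149). These correlations are weak and were not tested, so they do not settle the pairing. The main genotype fits used no replicate block in any class. Alternatives were DESeq2 1.42.0, RLE scaling, no filter on low counts, Ig genes kept, a replicate block, Y-linked transcripts as a covariate, a looser cell filter (at least 200 genes, at most 20% mitochondrial UMIs), doublets kept, resolution 1, no integration, and each library left out. R 4.3.3, limma 3.58.1, Python 3.11.15, numpy 2.4.6, scipy 1.17.1, pandas 2.3.3 and matplotlib 3.10.9 were used. Data of further wild-type mice that the study integrated were not analysed here.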

Additional observations from a re-analysis of the deposited data

Results flagged for a closer look

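Within-library differences between classes were searched for a library far from the others, by Dixon's test over 6 libraries. Of 50 groups tested 8 stood out. The groups share their libraries and classes, so the 1 in 20 that chance gives for independent groups is no yardstick here. Of these, 5 were plasma-lineage minus naive or memory B-like differences of Smc3 wt/- replicate 2, in log2 of CPM. H2-Aa was at -4.62 there, against -2.39 to -1.77 in the other 5 libraries. H2-Ab1 was at -3.10 against -1.57 to -0.95, and H2-Eb1 was at -3.90 against -2.11 to -1.47. H2-DMa was at -4.20 against -1.92 to -1.58, and H2-DMb2 was at -5.61 against -2.60 to -1.85. In this library 1290 of 1640 plasma-lineage cells were PC-like, against 16 of 82 to 12 of 34 in the others, so the mixture of PB-like and PC-like cells differs with the value. Cd74 did not stand out in this comparison.

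In the difference between CC-like and CB-like cells, H2-DMa of Smc3 wt/wt replicate 1 was at 0.79 against 0.31 to 0.48 elsewhere, and Ciita of Smc3 wt/- replicate 2 was at 0.15 against 0.48 to 0.54. In the difference between PC-like and PB-like cells, H2-DMa of Smc3 wt/- replicate 3 was at -2.76 against -1.72 to -1.13, with 16 PC-like cells behind it.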

How the results depend on the processing

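Leaving out each library in turn kept 0 class II genes called between the genotypes in every class compared, 9 between CC-like and CB-like cells and 10 in both comparisons with naive or memory B-like cells of the B lineage. Between PC-like and PB-like cells 5 to 6 were called, and 4 to 7 in the myeloid comparison. With the replicate number as a block, 0 class II genes and 0 of all genes were called in any class compared, where H2-Oa of CB-like cells differed by 0.62 and Cd74 of plasma-lineage cells by 0.58, so the pairing changed no call. Counts of all genes called between genotypes became 1 in CB-like cells without integration and 1 in S-phase GC B-like cells with DESeq2, and 21, 18, 13 and 52 in recycling-like, CC-like, naive or memory B-like and plasma-lineage cells without a filter on low counts, in each case from 0. Between classes they became 2437 without the library block (CC-like minus CB-like, from 4064), 2464 with the looser cell filter (naive or memory B-like minus CC-like, from 3890) and 2963 without the low-count filter (myeloid-like, from 1169). The causes were not tested.

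Of 827 recomputed log2 differences, 788 kept direction and side of the threshold, 12 lost and 10 gained the call, and 17 changed sign, none of them called in the main analysis. H2-Ob between CC-like and CB-like cells was 0.0086 without the library block, 0.036 at resolution 1, 0.51 with the looser cell filter and -0.051 to 0.036 with a library left out. Cd74 between PC-like and PB-like cells was -0.078 without the low-count filter. Against naive or memory B-like cells, myeloid-like H2-Ab1 was -0.20 without that filter and -0.36 without integration. H2-Aa was -0.0035 with DESeq2, -0.29 without the filter and -0.42 without integration, and -0.042 (without Smc3 wt/- replicate 2) to 0.21 with a library left out. H2-Eb1 was 0.14 without the library block, 0.061 with doublets kept and -0.14 to 0.11 with a library left out. In this comparison the median of all genes moved from -0.12 to -0.20 with RLE scaling, -0.22 with DESeq2 and -0.32 without the filter. H2-Oa between genotypes was -0.22 to 0.64 in CC-like and -0.030 to 0.41 in naive or memory B-like cells, both lowest without Smc3 wt/- replicate 2.

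Per 1000000 of all UMIs, PB-like means became 6966 (Cd74) and 45.0 (H2-Ob), and PC-like means 2533 (Cd74), 128 (H2-Aa), 331 (H2-Ab1), 108 (H2-Eb1), 22.9 (H2-DMa) and 15.4 (H2-Ob). Without thinning, the shares of cells with a UMI became 99.6% (H2-Aa), 92.4% (H2-DMa) and 47.3% (Ciita) in CC-like cells, 85.5% (H2-DMa) and 37.7% (Ciita) in naive or memory B-like cells, 100% (Cd74), 78.1% (H2-Aa), 49.2% (H2-DMa) and 3.88% (Ciita) in PB-like cells, 100% (Cd74), 43.9% (H2-Aa), 12.7% (H2-DMa) and 0.731% (Ciita) in PC-like cells, and 44.8% (Cd74) and 17.6% (H2-DMa) in T cell-like cells. Depth limits H2-Oa and Ciita in plasma-lineage cells, where 5 libraries hold 34 to 82 cells, and the 12 to 22 PC-like cells of these libraries.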

Other observations

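The ratio of Cd74 to H2-Eb1 UMIs, read within each library and class, was higher in replicate 1 of both genotypes than in the other 4 libraries in GC, naive or memory B-like and myeloid-like cells. In CB-like cells it was 13.0 in Smc3 wt/wt replicate 1 and 13.1 in Smc3 wt/- replicate 1, against 6.80 to 7.94 in the others. In CC-like cells it was 14.2 and 12.6 against 6.89 to 8.23, and in naive or memory B-like cells 14.5 and 13.0 against 6.56 to 7.76. Recycling-like cells showed it at a lower level (10.3 and 10.1 against 5.60 to 6.40), and myeloid-like cells showed it as well (9.58 and 11.7 against 5.62 to 6.26). These were also the 2 libraries with the fewest UMIs. The plasma-lineage cells of Smc3 wt/- replicate 2 had 37.5 Cd74 UMIs per H2-Eb1 UMI, more than those of the replicate 1 libraries (14.0 and 10.7).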
